A study of Mus musculus with 20 samples.

Results

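The immunity-related GTPase (IRG) genes Irgm1, Irgm2, Igtp, Iigp1, Ifi47, Tgtp1 and Tgtp2 were followed across normal and UV-damaged mouse skin. These 7 genes, of 22090 gene symbols in the count table, were taken by name and chosen by the measured levels of Iigp1, which separate actinic keratosis (AK) from normal skin (NS), so the levels of AK and NS are given below as a description, with no p-value, and counts past a limit are printed there only beside the share of all genes. RNA-seq had been carried out on 8 NS, 8 AK and 4 cutaneous squamous cell carcinoma (cSCC) tissues from the back of female hairless SKH-1 mice, an outbred stock prone to tumors of UV-exposed skin, which entered the study at 7 months of age. Of 8 mice, 4 were irradiated with simulated sunlight containing UVA and UVB and gave all AK and cSCC tissues and 4 of the NS tissues, while the other NS tissues came from 4 mice kept free of UV. The labels do not tell the NS tissues of irradiated and unirradiated mice apart, the AK tissues of grades 1 and 2 apart, or which tissues share a mouse. The samples were therefore treated as independent, although the 8 AK tissues came from 4 mice, and p-values measure only the spread between these samples.

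IRG proteins are GTPases that cells make in response to interferon, above all interferon gamma, and mice carry many of them. The GKS proteins, named for the glycine-lysine-serine in their nucleotide-binding motif, gather on the vacuoles of parasites such as Toxoplasma gondii and of some bacteria and break them open. The GMS proteins, which carry methionine in place of that lysine, sit on the membranes of the cell itself and hold the GKS proteins inactive there. Irgm1, Irgm2 and Igtp (also called Irgm3) are the GMS members, and Iigp1 (Irga6), Ifi47 (Irgd), Tgtp1 and Tgtp2 (both Irgb6) are GKS members. In skin, interferon gamma comes mostly from T cells and natural killer (NK) cells, and keratinocytes respond to it.

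Interferon signals reach such genes through short promoter elements, the interferon-stimulated response element (ISRE), bound by complexes that hold IRF factors, and the gamma-activated site (GAS). RefSeq promoters (GRCm38.p6) were matched by symbol for 6 of the 7 genes, and Iigp1 had no entry. Stretches of the 5 promoters that hold such letters are printed 5′ to 3′ on the gene's strand, with the letters of an ISRE-type match (GAAA, any 2 bases, GAAA) or a GAS-type match (TTCNNNGAA) in capitals, because the arrangement recurs among these genes.
Igtp (chr11:58199472-58199551, plus strand): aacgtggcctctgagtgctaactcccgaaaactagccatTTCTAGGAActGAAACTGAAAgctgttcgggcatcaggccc
Irgm2 (chr11:58214863-58214942, plus strand): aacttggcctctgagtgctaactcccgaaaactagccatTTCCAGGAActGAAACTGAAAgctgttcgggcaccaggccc
Tgtp1 (chr11:48992294-48992373, minus strand): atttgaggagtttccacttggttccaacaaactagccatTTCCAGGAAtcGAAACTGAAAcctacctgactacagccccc
Tgtp2 (chr11:49064253-49064332, minus strand): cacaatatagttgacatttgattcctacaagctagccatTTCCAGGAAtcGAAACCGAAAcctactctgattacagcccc
Irgm1 (chr11:48871428-48871457, minus strand): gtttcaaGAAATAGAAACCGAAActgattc

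Both elements stood next to each other, GAS-type first, in Igtp, Irgm2, Tgtp1 and Tgtp2. Irgm1 held 2 overlapping ISRE-type matches and no GAS-type match, and Ifi47 held neither in its 250 bases. Of 32851 RefSeq promoters searched over the same length and on both strands, 2.98% held the ISRE-type letters, 7.02% the GAS-type letters (which read the same on both strands) and 0.332% both. The Igtp and Irgm2 promoters shared an unbroken run of 55 identical bases and were 68.9% identical over 286 aligned columns, and the Tgtp1 and Tgtp2 promoters shared 27 bases and were 62.6% identical over 281. All other pairs were 46.1% to 55.4% identical. By GENCODE M21 on GRCm38, the Igtp stretch lies outside annotated genes and the Irgm2 stretch in an intron of the longer Irgm2 model. The Tgtp1 stretch is intronic in Tgtp1 and the Tgtp2 stretch lies upstream of Tgtp2, both also inside Olfr56 on the opposite strand. The Irgm1 stretch overlaps an annotated Irgm1 exon. A match of letters describes these windows and shows no bound site.

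**Figure D1:**
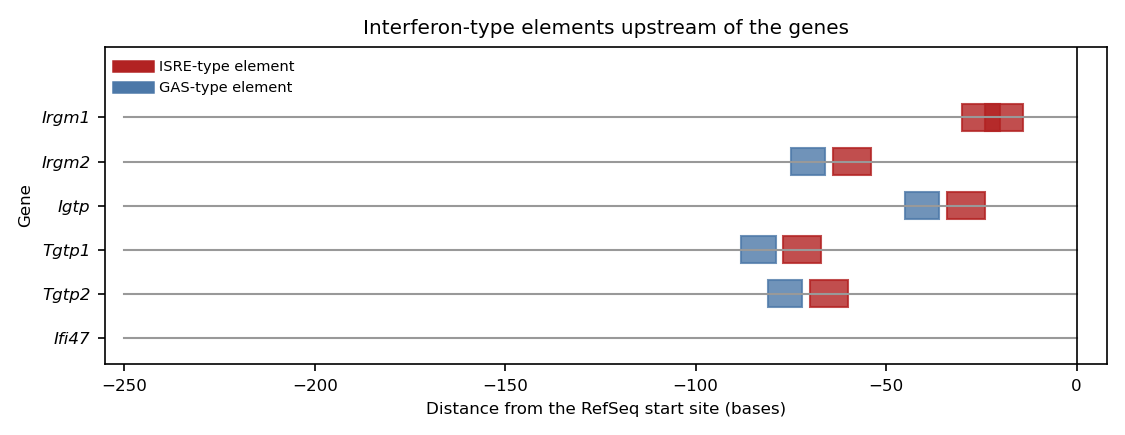
Positions of ISRE-type (red) and GAS-type (blue) letters in the 250 bases upstream of the RefSeq start of 6 genes, with distance from the start in bases on the x axis. In Igtp, Irgm2, Tgtp1 and Tgtp2 a GAS-type element stands just upstream of an ISRE-type element, Irgm1 holds 2 overlapping ISRE-type matches, and Ifi47 holds none.

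Libraries held between 775750 and 14055206 counts, and the smallest count of any of the 7 genes was 23, so none was near the level of 3 counts. Levels are CPM, in which counts were divided by a library total adjusted with TMM factors over the 20 samples. Some libraries stood apart from their label. The summed level of 6 heart muscle genes was 57188 CPM in cSCC replicate 21 and at most 73.2 CPM in any NS or AK sample, and 6 lung genes summed to 35805 CPM in cSCC replicate 20 and to at most 51.7 CPM in NS and AK. The sum of 5 red blood cell genes was 921921 CPM in cSCC replicate 18, and at most 52261 CPM in NS and 155604 CPM in AK. The TMM factor of cSCC replicate 18, 0.509, was the lowest of the 20 samples. Its CPM values are therefore larger than with library size alone, and this sum is not a share of its counts. Keratinocyte markers were present in every group, from 3722 CPM in cSCC replicate 21 to 19164 CPM in NS. Calls in cSCC are therefore given with and without cSCC replicates 20 and 21. Without them only cSCC replicates 18 and 19 remain, and replicate 18 is the library with the high red blood cell sum. In such bulk samples, fewer cells of a type and less RNA per cell cannot be told apart.

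All 7 genes had a higher mean in AK than in NS. Irgm1 (chr11:48861968-48871683, minus strand), the GMS regulator also tied to autophagy, had a lowest, median and highest level of 8.10, 47.9 and 127 CPM in NS and of 113, 163 and 306 CPM in AK. Its log2 fold change, AK over NS, was 1.60 (SE 0.37), and only NS replicate 7 reached into the AK range. Irgm2 (chr11:58199618-58222782, plus strand), a GMS protein of the Golgi, stood at 7.53, 25.6 and 75.3 CPM in NS and at 40.2, 96.0 and 164 CPM in AK, a log2 fold change of 1.44 (SE 0.37). Here 3 NS samples (replicates 6, 7 and 9) lay above the lowest AK sample, replicate 16. Igtp (chr11:58199556-58207591, plus strand), a GMS protein of the endoplasmic reticulum, spread from 9.45 to 185 CPM in NS with a median of 44.1 CPM, and from 60.5 to 274 CPM in AK with a median of 156 CPM. Its log2 fold change of 1.30 (SE 0.45) was the smallest of the 7, and NS replicate 7 exceeded 5 of the 8 AK samples.

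Among the GKS genes, Iigp1 showed no overlap between the groups. Its lowest, median and highest levels were 19.6, 107 and 213 CPM in NS and 279, 382 and 1194 CPM in AK, and the log2 fold change was 2.09 (SE 0.48). No NS sample lay between 44.0 and 169.6 CPM, with NS replicates 1, 2, 4 and 5 below that gap and NS replicates 6, 7, 8 and 9 above it. Irgm1, Igtp, Ifi47, Tgtp1 and Tgtp2 also had the former NS samples all below the latter. Irgm2 did not, as NS replicate 8 (24.7 CPM) lay below NS replicate 4 (26.5 CPM). The labels attach no difference in treatment to these samples. Some NS tissues came from irradiated mice, and the part of irradiation in this split was not tested. Ifi47 (chr11:49076587-49096974, plus strand), a GKS gene switched on by interferon gamma, ran from 12.4 to 135 CPM in NS (median 43.9 CPM) and from 93.5 to 434 CPM in AK (median 201 CPM), with a log2 fold change of 1.90 (SE 0.44). Only AK replicate 16 lay within the NS range. Ifi47 lies within the annotated span of Olfr56 on the same strand (20388 bases, 0.561% of windows shared), and Olfr56 averaged at most 0.505 CPM in any group.

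Tgtp1 (chr11:48985327-48994172, minus strand) and Tgtp2 (chr11:49057194-49064206, minus strand), neighbours that encode near-identical GKS proteins, had the largest fold changes of the 7. Their name, T-cell-specific GTPase, is not used here as a statement on the cells that express them. Tgtp1 ran from 6.97 to 98.9 CPM in NS (median 33.6 CPM) and from 92.7 to 569 CPM in AK (median 165 CPM), a log2 fold change of 2.31 (SE 0.49). Tgtp2 ran from 9.67 to 101 CPM in NS (median 35.9 CPM) and from 93.5 to 572 CPM in AK (median 155 CPM), a log2 fold change of 2.20 (SE 0.48). The NS and AK ranges of both genes met at about the same level, with NS replicate 7 above the lowest AK sample. Their separate values are uncertain, since 73.1% of 100-base windows in Tgtp1 transcripts and 76.8% in Tgtp2 transcripts also occur in each other or in the neighbouring gene Gm12185. Tgtp1 also overlaps Gm12185, Tgtp1 and Tgtp2 overlap Olfr56 on the opposite strand (8846 and 7013 bases), and the strand used in counting is not given in the sources used here. Irgm2 and Igtp overlap by 7974 bases on the same strand, with 3.0% of Irgm2 and 5.16% of Igtp windows shared, and Irgm1 and Iigp1 shared none.

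**Figure D2:**
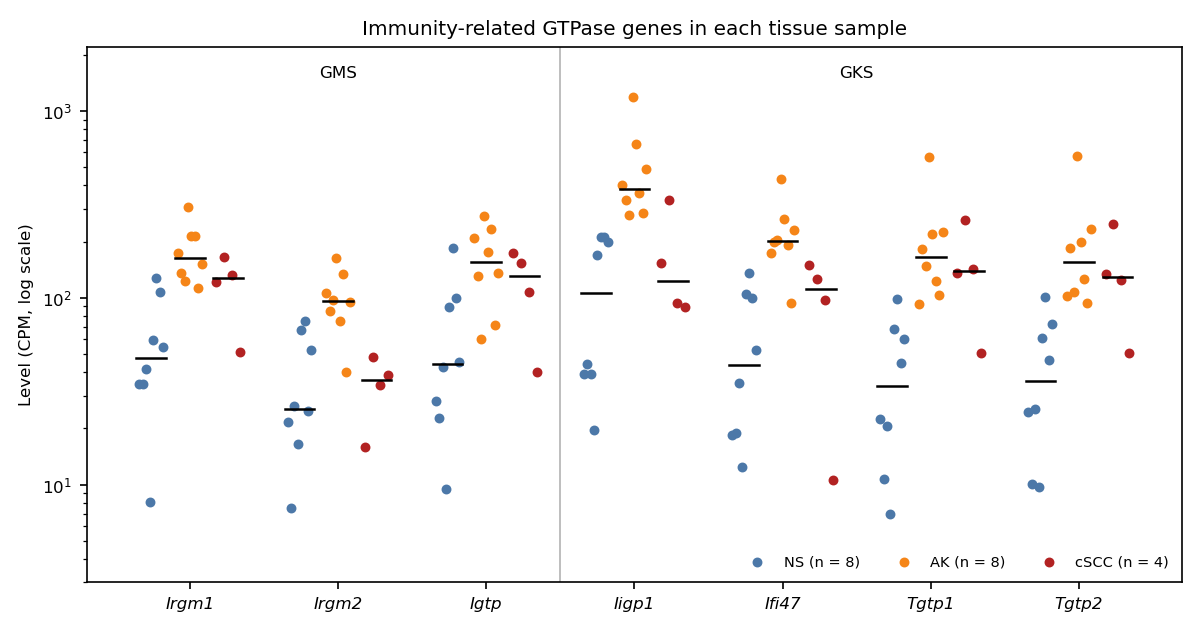
Level of each IRG gene in every sample in CPM on a log axis, with NS in blue, AK in orange and cSCC in red, and a black bar at each group's median. The Iigp1 levels of AK lie above all NS levels, from 279 against a highest NS level of 213 CPM, while the groups of the other 6 genes overlap.

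The limits used for differentially expressed genes (DEGs) were an adjusted p-value under 0.05 (edgeR quasi-likelihood test, Benjamini-Hochberg adjustment over all genes) and a fold change above 1.5 or below 0.67. In AK vs. NS, 6 of the 7 genes passed them as higher and Igtp did not, against 2.26% of 11677 genes tested called higher, and 1 of 7 had no overlap, against 0.394% of genes tested that lay wholly higher in AK. The median log2 fold change was 1.90 for the 7 genes and -0.037 for all genes tested. These counts come from the contrast by which the genes were chosen and are a description only. They depended on single libraries, because 2 of the 7 genes (Tgtp1 and Tgtp2) passed without AK replicate 13, 3 passed without NS replicate 4, and none passed when all 20 samples shared 1 fit, in which 9 genes in all were DEGs. In those fits every log2 fold change of the 7 stayed positive, and the lowest without any single sample was 1.13, for Igtp without NS replicate 5.

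The same libraries marked the ends of the range for most of the genes. AK replicate 13 was the highest AK sample for 7 of 7 genes, and NS replicate 7 the highest NS sample for 7 of 7. NS replicate 5 was the lowest NS sample for 6 genes and AK replicate 16 the lowest AK sample for 4. AK replicate 13 also had the highest AK sums of T cell markers (148.7 CPM, 4 of 5 genes in the table) and of NK cell markers (155 CPM, 5 of 5 genes), whose part in the result was not tested. In NS the highest T cell sum, 196 CPM, was that of replicate 4. There the 7 genes summed to 231 CPM, below the NS median of 385 CPM. The median T cell sum was 89.5 CPM in NS and 73.4 CPM in AK, and the median NK cell sum 50.0 and 66.8 CPM. NS replicate 7 had the highest NS sum of neutrophil markers, 5770 CPM against an NS median of 559 CPM, whose part was not tested either. Summed T cell markers ranged from 52.8 to 196 CPM in NS, from 26.4 to 149 CPM in AK and from 4.13 to 48.9 CPM in cSCC. Summed NK cell markers ranged from 30.4 to 94.7 CPM in NS, from 42.6 to 155 CPM in AK and from 3.64 to 34.7 CPM in cSCC. Within each group, 0 of these markers were at 0 in all samples.

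In cSCC, Tgtp1 and Tgtp2 were called above NS and Irgm2 was called below AK, and most Iigp1 levels lay below those of AK. The comparisons of cSCC with NS and with AK share the cSCC samples, and they share NS and AK with the contrast above, so their values are given side by side. The cSCC samples took no part in the choice of the genes, whereas the NS and AK samples did, so Iigp1 is given as a description, with no p-value. Tgtp1 stood at 135, 262, 143 and 50.6 CPM in cSCC replicates 18, 19, 20 and 21. In these TMM-scaled levels, 3 of the samples exceeded all NS samples, and the level of replicate 18 was raised by its low TMM factor. Replicate 18 held 195 Tgtp1 counts of 2830894 in all, and NS replicate 7 held 620 of 6295575. By library size alone, replicate 18 would thus lie below NS replicate 7. Tgtp1 was higher than in NS by a log2 fold change of 1.87 (SE 0.59, adjusted p = 0.0396), and against AK the log2 fold change was -0.40 (SE 0.49, adjusted p = 0.589). Tgtp2, at 134, 248, 124 and 50.4 CPM, was higher than in NS by a log2 fold change of 1.71 (SE 0.57, adjusted p = 0.0475), with -0.45 (SE 0.50, adjusted p = 0.547) against AK. Both calls against NS were close to the limit and were lost with library size alone in place of TMM factors (adjusted p = 0.0651 and 0.0812), and that of Tgtp2 also with upper quartile factors (0.0501) or without a filter on low counts (0.0537). Leaving out any of NS replicates 1, 2, 4, 5 and 8 or cSCC replicates 19 and 20 ended the call of Tgtp1, with adjusted p-values up to 0.139, and these and NS replicate 6 and cSCC replicate 18 ended that of Tgtp2, up to 0.171. Without cSCC replicates 20 and 21, which leaves replicates 18 and 19, the log2 fold changes were 2.28 (adjusted p = 0.0440) and 2.15 (adjusted p = 0.0462).

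Iigp1 stood at 154, 335, 93.3 and 89.0 CPM in cSCC replicates 18, 19, 20 and 21. All but replicate 19 lay below every AK sample, and all 4 lay within or above the NS range. The log2 fold change of Iigp1 was -1.47 (SE 0.48) against AK and 0.57 (SE 0.62) against NS. Without cSCC replicate 19 the value against AK was -2.05, and without cSCC replicates 20 and 21 together it was -0.96.

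Irgm2 had the lowest cSCC levels of the GMS genes, 15.98, 48.3, 34.1 and 38.5 CPM. Of the AK samples only replicate 16, at 40.2 CPM, lay within this range. The log2 fold change from AK was -1.40 (SE 0.37, adjusted p = 0.0156), and the call held without any single sample (adjusted p from 0.0101 to 0.0300). Without cSCC replicates 20 and 21 together the log2 fold change was -1.53 with an adjusted p of 0.0554, and limma voom gave -1.43 with an adjusted p of 0.111. Against NS, the log2 fold change of Irgm2 was -0.026 (SE 0.53, adjusted p = 0.977), and its sign depended on the processing.

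Irgm1, Igtp and Ifi47 passed neither comparison. Irgm1 stood at 122, 166, 133 and 51.6 CPM in cSCC, with log2 fold changes of 1.06 (SE 0.52, adjusted p = 0.164) against NS and -0.50 (SE 0.32, adjusted p = 0.271) against AK. Igtp, at 174, 153, 108 and 39.9 CPM, gave 0.90 (SE 0.61, adjusted p = 0.318) against NS and -0.35 (SE 0.42, adjusted p = 0.569) against AK. Ifi47 stood at 150.0, 126 and 97.8 CPM in cSCC replicates 18, 19 and 20 and at 10.6 CPM in replicate 21, below every NS sample. Its log2 fold changes were 0.73 (SE 0.67, adjusted p = 0.478) against NS and -1.15 (SE 0.52, adjusted p = 0.117) against AK. For 6 of the 7 genes the lowest cSCC sample was replicate 21, the library with heart muscle genes, and the part of that tissue in the result was not tested.

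In all, 2 of 7 genes were called higher in cSCC than in NS, against 11.7% of 12097 genes tested, and 2 of 7 lower in cSCC than in AK, against 8.34% of 12032 genes tested. The former 2, Tgtp1 and Tgtp2, share sequence and are not separate evidence, so their count cannot be weighed against the share of all genes. Of the latter 2, Iigp1 is the gene whose AK levels chose the list, so that count is not independent of the choice. The median log2 fold change of the 7 genes was 0.90 against NS (all genes 0.14) and -0.50 against AK (all genes 0.17), and all 7 were negative against AK. In both comparisons, 0 of 7 genes had groups without overlap, whereas 2.7% of genes tested lay wholly higher in cSCC than in NS and 6.84% wholly lower in cSCC than in AK. Without cSCC replicates 20 and 21, Tgtp1 and Tgtp2 were called against NS (background 5.74% higher and 6.46% lower) and, by edgeR, 0 of 7 genes against AK (background 5.9% lower and 6.71% higher), where 1 gene had an unadjusted p under 0.05 and Igtp and Tgtp1 had log2 fold changes of 0.078 and 0.0083.

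**Figure D3:**
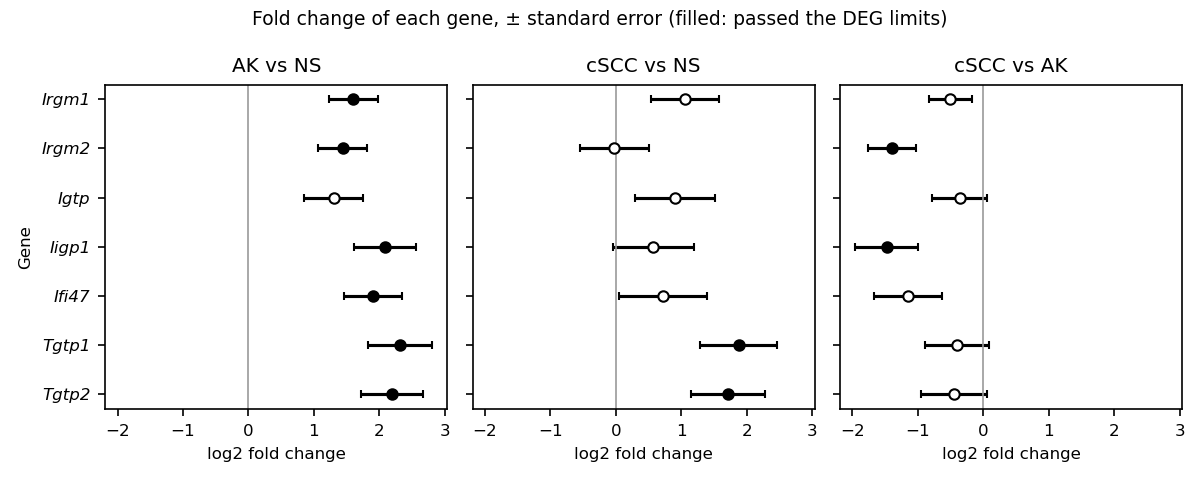
Log2 fold change of each IRG gene with its standard error for each pair of groups, with filled points for genes past the DEG limits. Filled points stand on the higher side for 6 genes in AK vs. NS and for Tgtp1 and Tgtp2 in cSCC vs. NS, and on the lower side for Irgm2 and, as a description only, Iigp1 in cSCC vs. AK.

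Levels of different genes were compared per kilobase of annotated exon, taken as the union over all transcripts of a gene (2022 bases for Igtp, 5823 for Iigp1 and 5810 for Irgm1). The order depends on these lengths, since mean CPM was higher for Iigp1 than for Igtp in each group. The sources differ on the build used for counting, and shared reads leave the places of Tgtp1 and Tgtp2 unsure. Per kilobase, Igtp was the highest of the 7 genes in 11 of 20 samples, Ifi47 and Iigp1 in 4 each and Tgtp2 in 1. Irgm2 was the lowest in 14 samples and Irgm1 in 4. In NS the mean was 32.3 ± 28.5 CPM per kilobase (SD, n = 8) for Igtp and 9.90 ± 6.83 CPM per kilobase for Irgm2. In AK, Ifi47 (90.6 ± 39.6 CPM per kilobase), Iigp1 (86.0 ± 52.8) and Igtp (79.9 ± 37.4) led and differed by less than their SD, with Tgtp2 (68.9 ± 53.7) and Tgtp1 (64.9 ± 48.1) next. Irgm1 (30.9 ± 11 CPM per kilobase) and Irgm2 (27.0 ± 10.1) were last in AK. In cSCC, Igtp (58.8 ± 29.4 CPM per kilobase, n = 4) led, followed by Tgtp2 (47.4 ± 27.8), Tgtp1 (46.1 ± 27.1), Ifi47 (38.8 ± 24.6) and Iigp1 (28.8 ± 19.8), neighbours that differed by less than their SD, and by Irgm1 (20.3 ± 8.29) and Irgm2 (9.28 ± 3.67).

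The balance between the genes within a sample does not depend on the scaling of libraries, and its description was chosen after the values were seen. The 3 GMS genes made up 39.8 ± 6.25% of the counts of the 7 genes in NS (SD, n = 8), 29.5 ± 7.17% in AK (n = 8) and 34.9 ± 5.23% in cSCC (n = 4), and the ranges of the groups overlapped. Iigp1, whose high AK levels chose the list, is part of this total and of the ratio to Iigp1 below. A lower GMS share in AK than in NS is thus partly set by the choice, and no share was computed without Iigp1. The lowest share was that of AK replicate 13, 21.2% (95% Wilson interval 20.5% to 21.8%, which covers counting error only), and AK replicates 10 and 15, at 38.9% and 42.0%, stood above the other AK samples. Tgtp1 had 0.212 to 0.575 counts per Iigp1 count in NS, 0.231 to 0.547 in AK and 0.569 to 1.54 in cSCC, where the lowest ratio, in replicate 21, lay within the NS range. Per Irgm2 count, Tgtp1 had 0.425 to 1.81 counts in NS, 0.872 to 3.47 in AK and, in cSCC replicates 18, 19, 20 and 21, 8.48, 5.42, 4.2 and 1.31. In 3 of 4 cSCC samples this ratio was above every NS and AK sample. No test was made on these ratios.

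**Figure D4:**
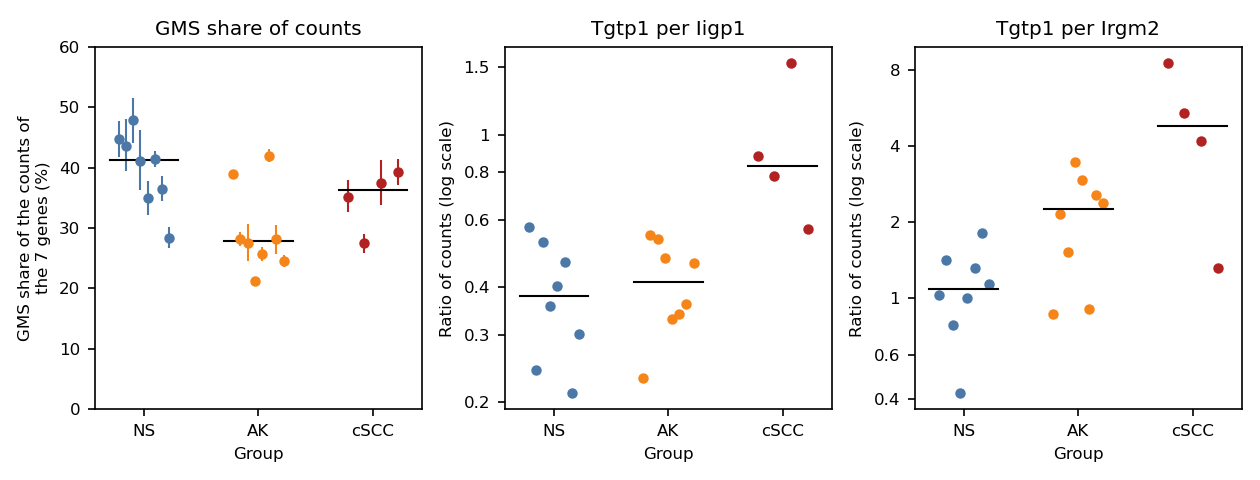
Share of the counts of the 7 IRG genes held by the GMS genes (left, percent with 95% Wilson intervals), Tgtp1 counts per Iigp1 count (middle, log axis) and Tgtp1 counts per Irgm2 count (right, log axis) in each NS, AK and cSCC sample, with bars at the group medians. The share is lowest in AK replicate 13 (21.2%), and 3 of 4 cSCC samples have a Tgtp1 to Irgm2 ratio above all others.

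Genes whose levels varied like Iigp1 within the groups were sought over the 16 NS and AK samples, with each group's mean subtracted and Pearson's r of log2(CPM + 1) as the measure of likeness. Among 10377 genes with a mean of at least 5 CPM the median r was 0.022. The other IRG genes had r of 0.91 (Ifi47), 0.91 (Tgtp1), 0.90 (Tgtp2), 0.87 (Irgm1), 0.83 (Igtp) and 0.68 (Irgm2), and among themselves pairs ran from 0.60 (Irgm1 and Irgm2) to 0.98 (Tgtp1 and Tgtp2, which share sequence). The 10 other genes most like Iigp1 were Gbp7 (0.91) and Gbp2 (0.89), guanylate-binding GTPases that act on the same vacuoles, Gm7676 (0.88), the chaperone gene Hspa5 (0.88), the IRG family gene 9930111J21Rik2 (0.88), the interferon-induced genes Rtp4 (0.87) and Ifitm3 (0.87), the T cell membrane gene Ms4a4b (0.87), the immunoproteasome gene Psmb8 (0.86) and Ly6f (0.86). Within the groups taken apart, the values were lower in AK than in NS for each of these genes. The values in NS, and those over both groups, span the gap between lower and higher NS samples described for Iigp1 above. Gbp7 had r of 0.93 in NS and 0.88 in AK, Hspa5 0.96 and 0.63, and Ifitm3 0.94 and 0.56. Irgm2 had 0.73 in NS and 0.53 in AK, and pairs of the 7 genes went down to 0.58 (Irgm1 and Irgm2) in NS and 0.40 (Igtp and Tgtp1) in AK. With Spearman's rho in place of Pearson's r, 6 of these 10 remained. The samples share libraries and mice, so these values describe the data and carry no p-value.

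The genes around the IRG system were read from lists of its ligands, signal carriers, partners and fellow targets, with AK vs. NS again a description, with no p-value. Over all genes tested, 2.26% were called higher and 2.38% lower in AK than in NS, 11.7% and 7.65% in cSCC than in NS, and 16% and 8.34% in cSCC than in AK. Of 14 listed interferon ligands and receptors, 6 passed the count filter in AK vs. NS and in cSCC vs. NS, all of them receptor chains. No ligand was thus tested in these 2 comparisons. Of the 6 receptor chains, 0 were called in AK vs. NS by edgeR and 0 by DESeq2. In cSCC vs. NS 1 of 6 was called, Ifnlr1, a receptor chain for interferon lambda. It was lower (log2 fold change -1.92, adjusted p = 0.0407). Without cSCC replicates 20 and 21 its log2 fold change was -2.29 (adjusted p = 0.0517), and 0 of 6 were called by edgeR, with 1 at an unadjusted p under 0.05 and 1 called by DESeq2 on all samples. Ifng, the ligand itself, had 0 to 2.25 CPM in NS, 1.2 to 8.45 CPM in AK and 0 to 2.64 CPM in cSCC, levels of at most 60 counts. It passed the count filter only in cSCC vs. AK (log2 fold change -1.95, SE 0.95, adjusted p = 0.146). Its receptor chain Ifngr1 averaged 164 ± 33.3 CPM in NS, 173 ± 38.1 CPM in AK and 121 ± 23.0 CPM in cSCC and was called in none of the comparisons. Ifngr2, the other chain, was called higher in cSCC than in AK (log2 fold change 2.11, adjusted p = 0.0156) with 317 CPM in cSCC replicate 21 and 29.6 to 41.3 CPM in the other cSCC samples. Without replicates 20 and 21, 0 of 7 ligands and receptors were called by edgeR in cSCC vs. AK, 1 had an unadjusted p under 0.05, and DESeq2 on all samples called 0.

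Of 11 kinases and transcription factors that carry the signal, 3 were called higher in AK than in NS and 0 lower. They were Stat2 (log2 fold change 1.14), Irf1 (0.88) and the kinase gene Jak2 (0.77), while the list's median was 0.21. In cSCC vs. AK, Stat2 (-1.34, adjusted p = 0.0104) and Nlrc5 (-2.32, adjusted p = 0.00789), an activator of MHC class I genes, were lower and Irf7 (1.45, adjusted p = 0.0162), a factor of type I interferon responses, was higher. Irf1, which drives many interferon gamma targets, averaged 32.2 ± 8.48 CPM in NS, 59.96 ± 17.5 CPM in AK and 74.2 ± 46.9 CPM in cSCC. Its log2 fold change was 1.26 (adjusted p = 0.0187) in cSCC vs. NS and 0.42 (adjusted p = 0.385) in cSCC vs. AK. Irf7 (1.58, adjusted p = 0.0284) was also higher and Nlrc5 (-2.06, adjusted p = 0.0197) lower in cSCC than in NS. Without cSCC replicates 20 and 21, 2 of 11 were called lower and 0 higher against AK, namely Stat2 and Nlrc5, and Irf1 was called higher and Nlrc5 lower against NS.

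Among fellow targets, the guanylate-binding proteins had fold changes of a size close to those of the IRG genes in AK vs. NS. Of 8 tested, 7 were called higher in AK than in NS, led by Gbp4 (log2 fold change 2.12) and Gbp8 (2.09), with a list median of 1.74. In cSCC vs. NS only Gbp3 was called (1.65, adjusted p = 0.0426, and 0.0462 without cSCC replicates 20 and 21), although all 8 log2 fold changes were positive, and in cSCC vs. AK 0 of 8 were called by edgeR or DESeq2, 0 had an unadjusted p under 0.05 and the median was -0.60. Of the interferon gamma targets that are not GTPases, the T cell chemokines Cxcl9 (2.36) and Cxcl10 (2.26) were called of 6 tested in AK vs. NS, Cd274, which encodes PD-L1, was called higher in cSCC than in NS (1.77, adjusted p = 0.00836, and 0.0261 without those replicates), and 0 of 7 were called in cSCC vs. AK by edgeR (3 with an unadjusted p under 0.05, 2 called by DESeq2). Of the type I interferon targets, Ifit1 (2.16), Oasl2 (1.61) and Ifit3 (1.5) were called of 7 tested in AK vs. NS, and Rsad2 (3.35, adjusted p = 0.0140) and Ifit2 (1.85, adjusted p = 0.0153) in cSCC vs. NS, against 0 of 8 in cSCC vs. AK (1 with an unadjusted p under 0.05, 0 called by DESeq2). Without those replicates Rsad2 was called (4.06, adjusted p = 0.0142) and Ifit2, highest in cSCC replicate 21 at 47.3 CPM, was not (1.36, adjusted p = 0.133). Among other IRG family genes, 9 of 13 listed symbols were in the table. Gm4951 was called higher in AK than in NS (1.89, 1 of 6 tested), Gm4841 lower in cSCC than in AK (-2.20, adjusted p = 0.0303, 1 of 8 tested), and 0 of 7 were called in cSCC vs. NS by edgeR or DESeq2, with 0 at an unadjusted p under 0.05. Gm4841 had 2 to 7 counts in the cSCC libraries, and without cSCC replicates 20 and 21 its log2 fold change was -2.04 (adjusted p = 0.134).

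The ATG8 conjugation system, whose proteins help to load IRG proteins onto vacuoles, and other autophagy genes were mostly not called in AK. Of 13 tested, 0 were called higher and 1 lower in AK than in NS, Map1lc3a (-1.02), and the median was -0.15. In cSCC vs. NS, 3 were higher and 2 lower, with Sqstm1 (1.45, adjusted p = 0.0202), an autophagy receptor, and Atg7 (1.23, adjusted p = 0.0148) up and Atg3 (-1.22, adjusted p = 0.0199) down. Sqstm1 was highest in cSCC replicate 21, at 964 CPM against a cSCC median of 277 CPM. Without replicates 20 and 21, 2 were called higher (Becn1 and Atg12, the latter named after its value was seen) and 1 lower (Atg3), with Sqstm1 at 0.68 (adjusted p = 0.147) and Atg7 at 0.94 (adjusted p = 0.120). In cSCC vs. AK 3 were again higher and 2 lower, with Atg7 at 1.84 (adjusted p = 0.00935) and Atg3 at -1.2 (adjusted p = 0.00878), and without cSCC replicates 20 and 21 the counts were 0 and 1. Of 5 feedback genes tested, Usp18 (1.56), which dampens type I interferon signaling, was called in AK vs. NS, and Socs3, an inhibitor of JAK kinases, was higher in cSCC than in NS (1.71, adjusted p = 0.0216) and AK (1.32, adjusted p = 0.0128), also without those replicates (adjusted p = 0.0465 and 0.0252).

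**Figure D5:**
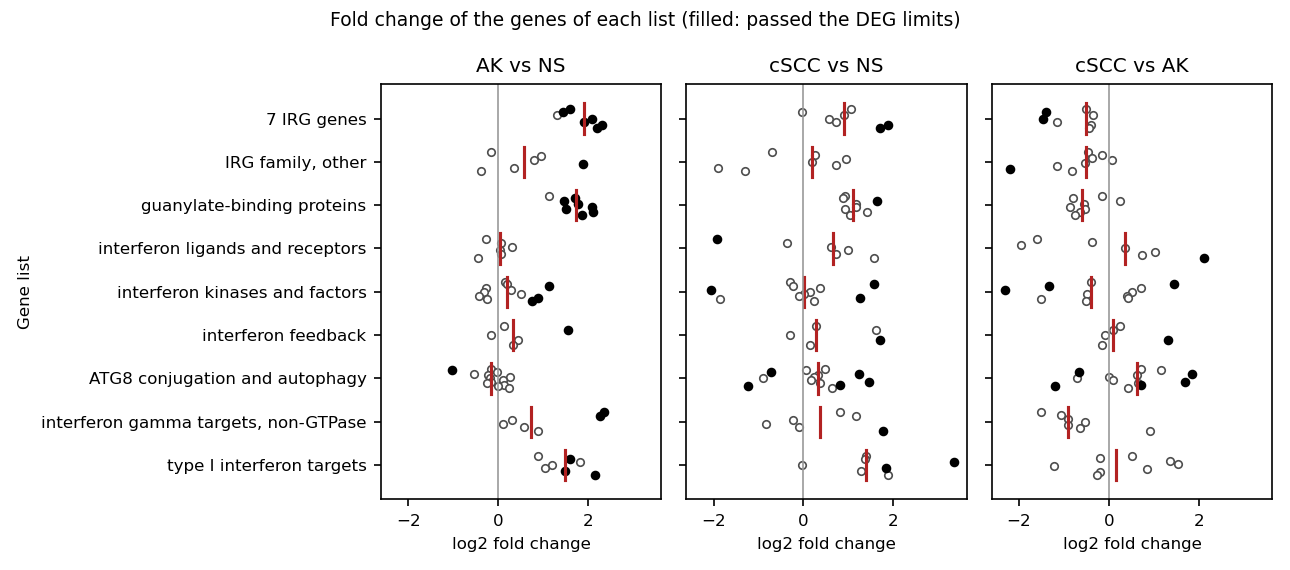
Log2 fold change of each gene of the IRG genes and 8 related lists for each pair of groups, with filled points for genes past the DEG limits and red bars at list medians. In AK vs. NS the IRG genes (median 1.90) and guanylate-binding proteins (median 1.74) lie to the right of 0, and the ATG8 and autophagy list (median -0.15) does not.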

How the data were processed

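Per the paper's methods, reads were trimmed with Trimmomatic, aligned to GRCm38 with HISAT2 and quantified with StringTie, while the submitters' processing notes name Trimmomatic 0.36, HISAT2 2.0.5 and featureCounts 1.5.2 with the builds mm9 and hg19. The authors deposited raw counts per gene symbol, not normalized, and all values here were computed from these counts. How reads shared by near-identical genes were counted, and on which strand, is not given in the sources used here.

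The 7 genes, the gene lists and the tests were chosen with earlier results of these data known. Genes named were the 7, called genes of each list (at most 4 per list and comparison, by absolute log2 fold change), Ifng, Ifngr1, Ifngr2 and Irf1, and the 10 genes most like Iigp1. An item of 1 list is withheld and not reported here. Pairs of groups were fitted with edgeR 4.0.16 (R 4.3.3, TMM factors, filterByExpr, quasi-likelihood test) on the samples compared, with Benjamini-Hochberg adjustment over all genes tested. The standard error is the log2 fold change divided by the square root of F. The fit was also run on simulated counts with set changes, drawn as independent samples. That run cannot show how the fit treats tissues that share a mouse or hold heart, lung or blood genes. Alternatives were DESeq2 1.42.0, limma 3.58.1 voom with sample weights, other scaling, other filters, 1 fit over all 20 samples, and leaving out samples. The counts of the 62 sample pairs within groups differed beyond sampling noise (chi-square per degree of freedom of at least 11.3), so no library was taken as a repeat of another. Each sample counted as 1 replicate because the labels do not give the mouse, and this check cannot show that tissues of 1 mouse are independent. Sequences are from RefSeq and gene models from GENCODE M21.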

Additional observations from a re-analysis of the deposited data

Results flagged for a closer look

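Of 36 sets of values tested for a lone extreme sample, 4 held one. Chance would give about 1 in 20 only for independent, normally distributed sets. These sets are CPM of genes that vary together, and they include the Iigp1 levels that chose the list, so the count does not measure an excess over chance. AK replicate 13 stood apart in 3 of them, with Iigp1 at 1194 CPM (next sample 667 CPM), Tgtp1 at 569 CPM (next 226 CPM) and Tgtp2 at 572 CPM (next 234 CPM). Tgtp1 and Tgtp2 share sequence and are not separate evidence. In cSCC, replicate 21 had 317 CPM of Ifngr2 against 41.3 CPM in the next sample, and this library also held heart muscle genes, whose part in the value was not tested.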

How the results depend on the processing

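For AK vs. NS, 542 DEGs became 1049 with DESeq2, 1043 with limma voom and 9 with all 20 samples in 1 fit, and the IRG genes called went from 6 to 0 in that last fit. Leaving out 1 sample gave 164 to 920 DEGs and 2 to 7 IRG genes. For cSCC vs. NS, 2340 DEGs became 1526 with at least 10 counts in every sample, 1308 with voom and 1558 without cSCC replicates 20 and 21, and the 2 IRG genes called became 0 with library size alone, 1 with upper quartile factors and 1 without a filter. Leaving out 1 sample gave 1695 to 3181 DEGs and 0 to 2 IRG genes. For cSCC vs. AK, 2935 DEGs became 1731 with at least 10 counts, 1270 with voom and 1584 without replicates 20 and 21, and the 2 IRG genes became 0, 1 and 0 with voom, the fit over 20 samples and without those replicates. Leaving out 1 sample gave 1787 (without cSCC replicate 21) to 3994 DEGs and 1 or 2 IRG genes. The sign turned for Irgm2 in cSCC vs. NS (0.0109 with at least 10 counts, 0.22 with voom, -0.24 to 0.22 leaving out 1 sample), Iigp1 in cSCC vs. NS (-0.0119 to 0.78 leaving out 1 sample, lowest without cSCC replicate 19), Tgtp1 in cSCC vs. AK (-0.84 to 0.0211, highest without AK replicate 13, and 0.00830 without replicates 20 and 21) and Igtp in cSCC vs. AK (0.0782 without those replicates). The cause was not tested. Calls were 48.7% higher in AK vs. NS, but 26.8% with library size alone, 32.7% with upper quartile factors and 35.2% with at least 10 counts, 60.4% in cSCC vs. NS, but 31.9% with library size alone, and 65.8% in cSCC vs. AK, but 43.0%. Library size alone moved the median of all genes from 0.14 to -0.17 in cSCC vs. NS and from 0.17 to -0.09 in cSCC vs. AK, and the IRG median relative to it from 0.76 to 0.79 and from -0.68 to -0.59. No paired analysis was possible because the labels do not tell which tissues share a mouse. Depth limits the statements on Ifng, which had at most 60 counts.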
